A study of Mus musculus with 8 samples.

Results

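The myosin heavy and light chain genes of the embryonic mouse heart were described across cells sorted for a conduction system reporter. The members were chosen by name: every non-control probe that the scanner files assign to Myh6, Myh7, Myl1, Myl2, Myl3, Myl4, Myl7 or Myl9 was taken, which gave 13 of 41174 probes and 8 of 27727 gene names. Hearts at stage E10.5 (embryonic day) came from the transgenic line minKGFP, in which green fluorescent protein (GFP) reports minK (Kcne1), a potassium channel subunit. Enzymes freed single cells, and a sort by fluorescence gave 4 GFP-high samples, labelled as conduction system cells, and 4 GFP-low samples, labelled as chamber myocardium. All 8 samples carried the transgene, so the groups differ in reporter level and not in genotype, and how many embryos went into a sample is not given in the sources used here. From 5 ng of RNA per sample an amplified product was made, of which 2 ug was labelled and hybridised to a 1-colour array.

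Myosin II is the motor of the sarcomere. A pair of heavy chains carries the motor heads, and each head binds an essential and a regulatory light chain that stiffen and tune its lever arm. The heart uses chamber-specific versions of each chain: Myh6 (the fast alpha heavy chain), Myl7 (a regulatory light chain) and Myl4 (an essential light chain) become atrial, while Myh7 (the slow beta heavy chain), Myl2 (regulatory) and Myl3 (essential) become ventricular. Myl1 encodes the essential light chain of fast skeletal muscle, and Myl9 the regulatory light chain of smooth muscle and non-muscle cells. In the midgestation mouse heart these restrictions are still being set up.

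Levels are log2 of the processed probe signal minus the 75th percentile of the array, so 0 marks that percentile and a step of 1 is a factor of 2. The arrays lay on 2 slides, with replicates 1 and 2 of each group on the first and replicates 3 and 4 on the second, called slide 1 and slide 2 here. The 75th percentile itself ran from 137.6 to 216.9 intensity units, and 36.3% to 50.7% of spots were well above background. Kcne1, whose regulatory region drives the reporter, checked the sort: its level was 1.81, 2.52, 2.60 and 2.03 in GFP-high replicates 1 to 4 and -0.42, -0.89, -0.77 and -0.30 in GFP-low, a difference of 2.83 (limma, adjusted p = 0.0267). Its second probe gave a smaller difference of 1.29 (1.67 ± 0.57 and 0.37 ± 0.40, SD, n = 4 each), also without overlap. Of 12852 tested genes, 10 were higher and 11 lower in GFP-high at an adjusted p under 0.05, or 0.163%. Leaving out 1 array at a time gave 0 to 37 such genes, so the number of calls was not stable. Whether this came from particular arrays or from having fewer samples was not tested. With bulk samples, fewer cells of a type and less RNA per cell cannot be told apart, and 4 arrays per group limit the precision of every value here.

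All 13 probes passed the filter on dim signal, and 12 were well above background on all 8 arrays; the dimmer Myl1 probe was so on 7. Myh6, Myh7, Myl1, Myl3 and Myl4 have 2 probes each, and Myl2, Myl7 and Myl9 have 1. Each probe is 60 bases long. The 4 below belong to the genes whose reading turns on the probe: the accession field of both Myh6 probes also lists Myh7, and the pair for Myl3 lies at different ends of the transcript. Genome positions (mouse build mm9) were read from the scanner files, sequences run 5′ to 3′, and exon and UTR annotation of that build was not used here.
Myh6 brighter probe, chr14:55565256-55565315, minus strand: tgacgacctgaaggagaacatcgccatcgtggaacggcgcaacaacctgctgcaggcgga
Myh6 dimmer probe, chr14:55563592-55565177, minus strand: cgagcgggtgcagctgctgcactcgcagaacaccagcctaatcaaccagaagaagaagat
Myl3 brighter probe, chr9:110671632-110671926, plus strand: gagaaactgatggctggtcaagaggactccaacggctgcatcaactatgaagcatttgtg
Myl3 dimmer probe, chr9:110666325-110666384, plus strand: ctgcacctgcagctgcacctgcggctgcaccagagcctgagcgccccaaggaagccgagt

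The first Myh6 probe, the second Myl3 probe and the Myh7, Myl7 and Myl9 probes each cover a single block of 60 bases in the genome. The other Myh6 probe spans 1586 bases and the brighter Myl3 probe 295, so these cross at least 1 intron. By the transcript positions in the files, the Myl3 probes start at bases 598 and 140. Listing a second gene was uncommon, at 1.975% of the 25263 probes with a reference gene. Whether Myh7 RNA adds to the Myh6 signal was not tested. The Myl4 probes share 47 bases, in capitals here, so they are no independent measures of that gene.
Myl4 brighter probe, chr11:104445435-104445805, plus strand: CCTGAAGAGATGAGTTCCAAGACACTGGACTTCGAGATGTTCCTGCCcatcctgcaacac
Myl4 second probe, chr11:104445422-104445792, plus strand: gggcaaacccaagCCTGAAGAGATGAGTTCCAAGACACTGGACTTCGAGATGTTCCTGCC

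The sarcomeric heavy chains did not separate the sorted groups. Myh6, the alpha heavy chain, had a level of 7.98, 7.43, 6.72 and 6.71 in GFP-high replicates 1 to 4 and 7.16, 7.19, 6.76 and 7.43 in GFP-low. The highest and the lowest of these 8 arrays were both GFP-high. The means were 7.21 ± 0.61 and 7.13 ± 0.28 (SD, n = 4 each), a difference of 0.075 ± 0.34 (SE; limma, adjusted p = 0.932). Its 95% interval, from -0.71 to 0.86, still allows a GFP-high level from 0.612 to 1.81 times that of GFP-low. The dimmer Myh6 probe gave 0.12 ± 0.31 (SE); on it too GFP-high replicate 1 was highest and GFP-high replicate 4 lowest.

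Myh7, the beta heavy chain, had a level of 10.1, 10.4, 9.60 and 9.57 in GFP-high and 9.79, 10.1, 8.95 and 9.97 in GFP-low. GFP-low replicate 3 was lowest and GFP-high replicate 2 highest, and the groups overlapped. The difference was 0.24 ± 0.34 (SE; limma, adjusted p = 0.748; 95% interval -0.53 to 1.01). The second Myh7 probe, which overlaps the first, gave 0.205 ± 0.24 (SE). This gene had the brightest readings among the members, which reached at most 25.0% of the scanner's saturation value, so no member reached the scanner's limit. Saturation or compression of the signal at the probes themselves was not tested.

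None of the regulatory light chains was called. Myl2, the ventricular chain, had a level of 9.31, 9.43, 9.07 and 9.21 in GFP-high and 8.73, 9.18, 8.03 and 9.12 in GFP-low. GFP-high spread little (9.26 ± 0.16, SD, n = 4) and GFP-low more (8.76 ± 0.53), with GFP-low replicate 3 far below the rest. The difference was 0.49 ± 0.30 (SE; limma, adjusted p = 0.469; 95% interval -0.20 to 1.18).

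Myl7, the atrial counterpart of Myl2, had a level of 8.93, 8.92, 8.396 and 8.88 in GFP-high and 8.25, 8.67, 8.17 and 8.77 in GFP-low. In GFP-high, replicates 1, 2 and 4 lay close together and replicate 3 was lower, inside the GFP-low range. The difference was 0.32 ± 0.26 (SE; limma, adjusted p = 0.570; 95% interval -0.27 to 0.90). Its range over the 8 arrays, 0.76, was narrower than that of all but 6.93% of the tested genes.

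Myl9, the smooth muscle and non-muscle chain, had the largest difference of the 8 genes. Its level was 8.85, 8.93, 8.62 and 8.96 in GFP-high and 8.09, 8.34, 7.97 and 8.64 in GFP-low. The groups met at a single pair of arrays, GFP-high replicate 3 and GFP-low replicate 4. The difference was 0.58 ± 0.24 (SE), or 1.49-fold, with an unadjusted p of 0.0409 and an adjusted p of 0.329 in limma. Unadjusted p-values under 0.05 were found for 14.4% of all tested genes, so 1 in 8 members is not a larger share.

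The essential light chains gave the widest gap between probes of a gene. Myl3, the ventricular chain, had a level on its brighter probe of 9.17, 9.68, 8.89 and 9.16 in GFP-high and 8.49, 8.94, 8.46 and 8.88 in GFP-low. Only GFP-low replicate 2 reached above the lowest GFP-high array. The difference was 0.53 ± 0.26 (SE; limma, adjusted p = 0.384; 95% interval -0.066 to 1.13). On the dimmer probe, toward the 5′ end, the level was 5.22, 5.36, 4.25 and 5.07 in GFP-high and 3.90, 4.84, 3.43 and 4.37 in GFP-low. There GFP-high replicate 3 fell below GFP-low replicates 2 and 4. That probe's difference was 0.84 ± 0.39 (SE), with an adjusted p of 0.380 in limma over probes.

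Myl4, the atrial essential chain, had a level of 9.30, 9.44, 8.60 and 9.25 in GFP-high and 8.63, 9.28, 7.95 and 9.01 in GFP-low. Replicate 3 was the lowest array in each group. The difference was 0.43 ± 0.35 (SE; limma, adjusted p = 0.574; 95% interval -0.37 to 1.22), and the overlapping second probe gave 0.32 ± 0.34.

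Myl1, the fast muscle chain, had a level of 6.39, 6.22, 5.15 and 6.07 in GFP-high and 5.82, 5.93, 5.10 and 5.85 in GFP-low. Replicate 3 again stood below the other arrays in each group. The difference was 0.285 ± 0.34 (SE; limma, adjusted p = 0.707; 95% interval -0.50 to 1.07). The dimmer Myl1 probe, near the detection limit, gave 0.55 ± 0.52 (SE); it starts at transcript base 107 and its accession field names 1 of the 2 Myl1 transcripts.

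**Figure D1:**
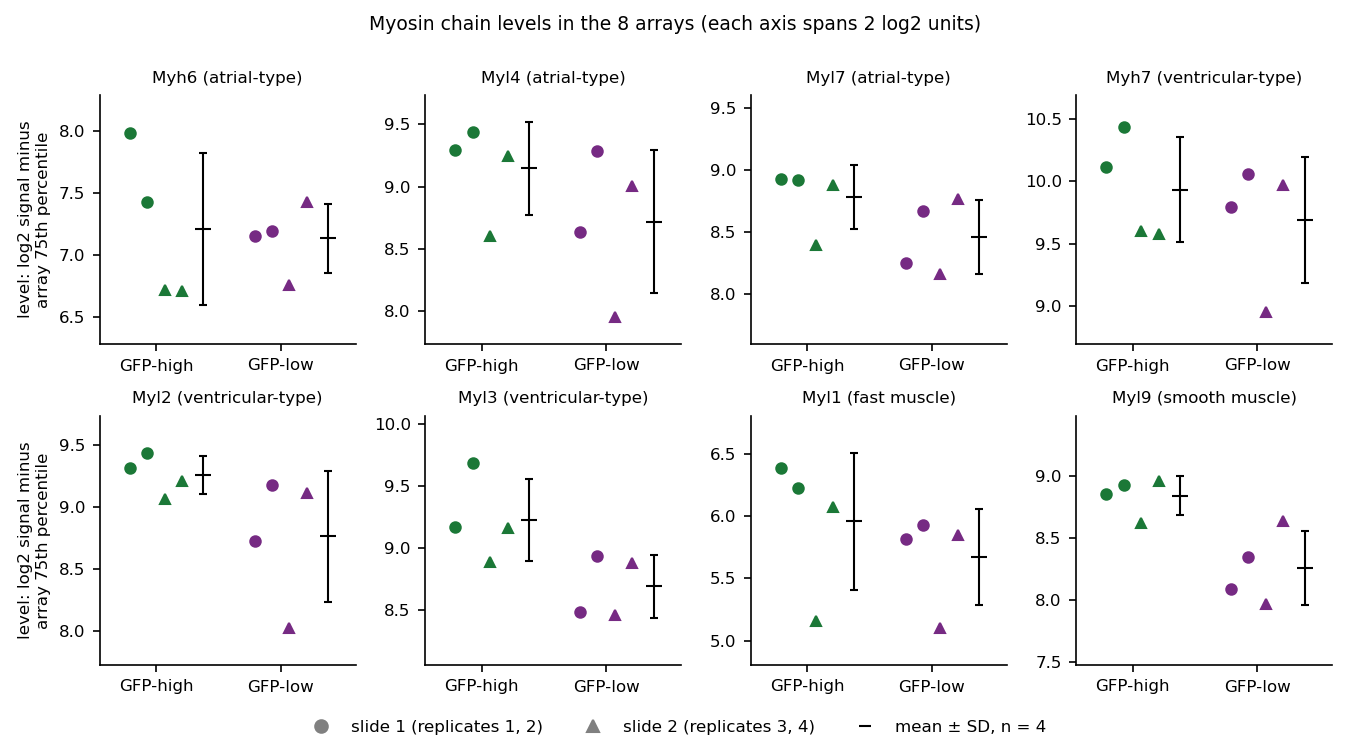
Level of each myosin chain (log2 signal minus the array's 75th percentile, 1 panel per gene) in GFP-high and GFP-low, with circles for slide 1, triangles for slide 2 and the mean ± SD beside each group of 4 arrays. The groups overlap in every panel, and GFP-low replicate 3 is the lowest GFP-low array for all 8 genes.

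None of the 8 genes was called in either direction, where 0.163% of all tested genes were (0.0778% higher and 0.0856% lower in GFP-high), and the groups overlapped for all 8, where 9% of all tested genes had no overlap. In the fit over probes, 0 of 13 member probes were called, where 0.0379% of 18482 tested probes were; the lowest adjusted p was 0.360, for Myl9. By limma over genes, 1 of the 8 had an unadjusted p under 0.05. The differences ran from 0.075 (Myh6) to 0.58 (Myl9), with a median of 0.37. All 8 were positive, as were 61.9% of all tested genes, whose median was 0.16. The atrial-type chains had a median of 0.32 and the ventricular-type chains 0.49, ranges that overlap (0.075 to 0.43 and 0.24 to 0.53).

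The sign of the smallest differences depended on the scale. Myh6 went to -0.14 with normexp background correction, -0.145 with quantile normalization and -0.12 with no scaling between arrays. Myh7 went to -0.039 and -0.080 under the first 2 of these, and Myl7 to -0.004 under quantile normalization. Myl1, Myl2, Myl3, Myl4 and Myl9 kept a positive difference under these settings, from 0.086 for Myl1 with quantile normalization to 0.39 for Myl2 with normexp. Relative to the median of all tested genes, quantile normalization left Myl9 at 0.18, Myl3 at 0.062 and Myl2 at 0.059. The other 5 were then below the median gene: Myl4 at -0.005, Myl1 at -0.007, Myl7 at -0.097, Myh7 at -0.17 and Myh6 at -0.24.

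**Figure D2:**
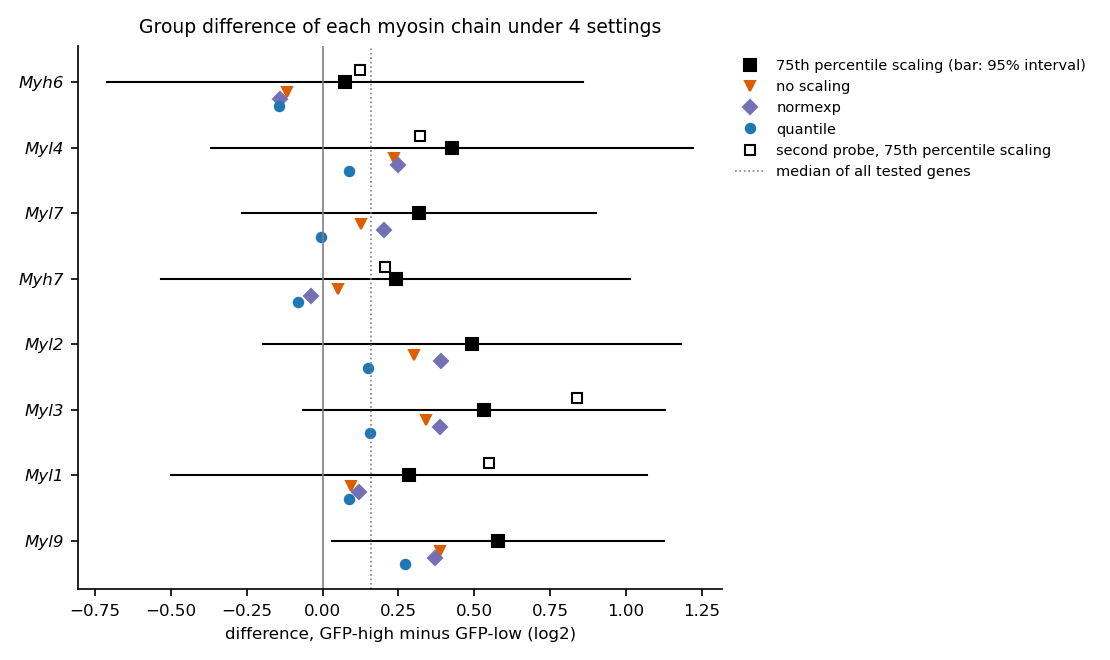
Difference of each gene, GFP-high minus GFP-low on the log2 scale, as fitted after 75th percentile scaling (black squares, bars for the 95% interval), on the second probe (open squares) and under 3 other settings (coloured symbols). Only the interval of Myl9, 0.030 to 1.13, leaves out 0, before any adjustment for the number of genes, and the coloured symbols lie left of the black squares in every row.

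The ratio of an atrial-type to a ventricular-type chain within an array does not depend on the array's scale. Its absolute value depends on both probes, so only differences between arrays can be read. For the heavy chains, log2 of Myh6 over Myh7 was -2.14, -3.01, -2.89 and -2.86 in GFP-high replicates 1 to 4 and -2.64, -2.87, -2.19 and -2.54 in GFP-low. GFP-high replicate 1 had the highest ratio and the other GFP-high arrays lay near the bottom. The means were -2.73 ± 0.40 and -2.56 ± 0.28 (SD, n = 4 each), a difference of -0.17 (exact two-sided permutation test, p = 0.571, adjusted over the 3 ratios 0.657).

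For the regulatory light chains, log2 of Myl7 over Myl2 was -0.38, -0.51, -0.67 and -0.33 in GFP-high and -0.48, -0.51, 0.14 and -0.35 in GFP-low. All but GFP-low replicate 3 lay between -0.67 and -0.33. The difference was -0.175 (exact two-sided permutation test, p = 0.371, adjusted 0.657), and without that array it was -0.029.

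For the essential light chains, log2 of Myl4 over Myl3 on the brighter probes was 0.13, -0.24, -0.29 and 0.091 in GFP-high and 0.15, 0.34, -0.51 and 0.12 in GFP-low. The GFP-high arrays lay inside the range of GFP-low. The difference was -0.10 (exact two-sided permutation test, p = 0.657, adjusted 0.657). With the 5′ Myl3 probe in its place the groups no longer overlapped: the ratio was 4.08, 4.07, 4.36 and 4.18 in GFP-high and 4.73, 4.45, 4.53 and 4.63 in GFP-low. This gave -0.41 (p = 0.0286, the smallest that the exact permutation test over 70 assignments can give, and 0.0857 adjusted over the 3 ratios), with -0.51 on slide 1 and -0.31 on slide 2. The second Myl4 probe against it gave -0.52. This choice of probe was made after its values were seen, and which of the Myl3 probes better reports the gene was not tested.

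**Figure D3:**
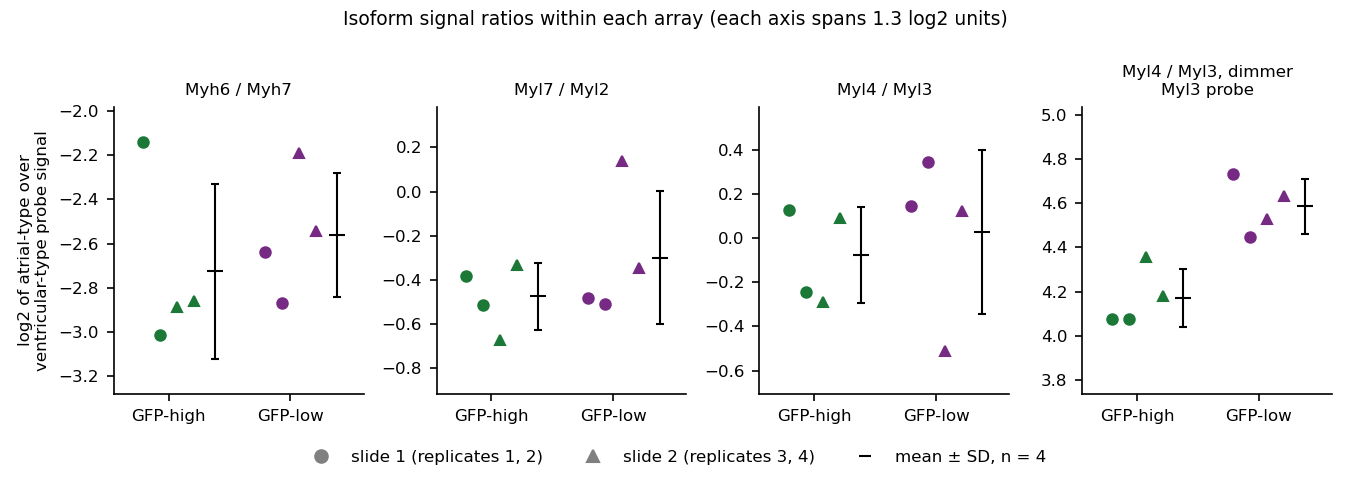
Log2 ratio of atrial-type over ventricular-type probe signal within each array for the 3 chain types, and for Myl4 over the dimmer Myl3 probe, with circles for slide 1, triangles for slide 2 and the mean ± SD of 4 arrays. The groups overlap in the first 3 panels (differences of -0.17, -0.175 and -0.10) and do not in the fourth (-0.41).

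All 3 ratios were lower in GFP-high, as was the mean of Myh6, Myl4 and Myl7 minus the mean of Myh7, Myl2 and Myl3. That contrast was -0.80, -1.26, -1.28 and -1.03 in GFP-high and -0.99, -1.01, -0.85 and -0.92 in GFP-low. GFP-high replicate 1 was above every GFP-low array and the other GFP-high arrays were below them all. The means were -1.09 ± 0.23 and -0.945 ± 0.071 (SD, n = 4 each), and no test was made of this score. Of the 6 ratios across chain types, Myl7 over Myh7 and Myl4 over Myh7 were higher in GFP-high, by 0.077 and 0.19, and the other 4 were lower, by up to -0.46 for Myh6 over Myl3.

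The slides gave different pictures for Myh6. On slide 1 both GFP-high arrays were above both GFP-low arrays, by 0.53 on average, and on slide 2 both were below, by -0.38. The test of the difference between slides gave an unadjusted p of 0.154 and an adjusted p of 1 in limma, and 0 genes were called for it. Its ratio to Myh7 turned as well, from 0.18 on slide 1 to -0.51 on slide 2. Myl7 over Myl2 went from 0.047 to -0.40, and Myl4 over Myl3 from -0.30 to 0.095. The other 7 genes were higher in GFP-high on both slides. On slide 1 the arrays of the groups did not overlap for any of the 8, with 2 arrays against 2 and all 8 higher in GFP-high; of 12846 genes measured on every array, 52.5% had no overlap there (35.4% higher in GFP-high). On slide 2 this held for Myh6, lower, and Myl3, higher, where 31.4% of these genes had no overlap (17.2% higher). The Myl3 difference was 0.71 on slide 1 and 0.35 on slide 2, and that of Myl9 was 0.67 and 0.49.

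The members' scaled levels were low where the array's 75th percentile was high. The mean level of the 8 chains was lowest in GFP-low replicate 3 (7.67), GFP-low replicate 1 (8.12) and GFP-high replicate 3 (8.13), and lay between 8.45 and 8.81 in the other 5 arrays. These 3 arrays also had the highest 75th percentile, at 216.9, 195.6 and 183.9, where the others had 137.6 to 156.4. Since the percentile is subtracted, the scaled level falls with it by construction. Before scaling, the mean log2 signal was lowest in GFP-low replicate 3 as well (15.4) and was 15.61 to 15.98 in the others, so that array read low on either scale. The part of the array's 75th percentile in the group differences was not tested beyond the scalings above.

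**Figure D4:**
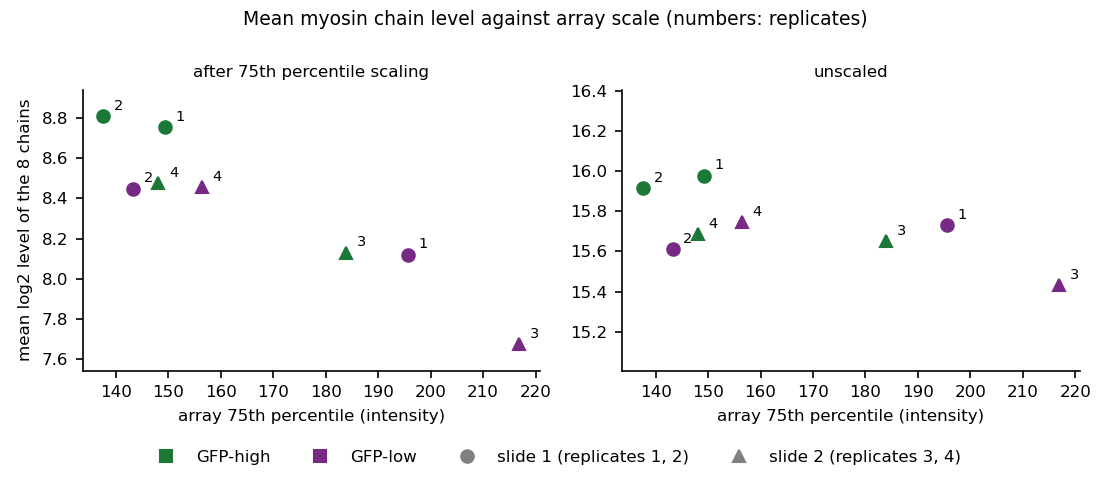
Mean log2 level of the 8 myosin chains against the 75th percentile intensity of each array, after scaling (left) and before (right), green for GFP-high, purple for GFP-low, circles for slide 1, triangles for slide 2 and numbers for replicates. The 3 arrays with the highest 75th percentile have the lowest scaled means, 7.67 to 8.13, and GFP-low replicate 3 is lowest in both panels.

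The chains were compared by the distance between their profiles over the arrays. With each gene centred on its own mean, the root mean square distance over the 8 arrays was smallest for Myl7 and Myl9 (0.16) and for Myl2 and Myl4 (0.16). These close pairs join an atrial to a smooth muscle chain, and a ventricular to an atrial chain. The distance was largest for Myh6 and Myl9 (0.45), and Myh6 was at least 0.309 from every other member. For comparison, the median distance of Myh6 to all tested genes was 0.645, and 29% of those genes had a narrower range than Myh6. Such a distance is also small where both genes vary little, so it does not show by itself that they move together. The subtracted percentile also shifts all genes of an array alike.

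Some genes outside the family lay closer still. The 3 nearest to Myl2 included Rpl28 (0.084) and Rpl32 (0.094), ribosomal protein genes, and the nearest to Myl1 was Rpsa (0.058), also a ribosomal protein, followed by Coro2b (0.11), an actin-binding coronin, and Lrrc47 (0.115). Near Myl3 were Cenpx (0.066), a centromere gene, and Ndufv1 (0.086) and Ndufv3 (0.088), subunits of respiratory complex I. Chchd2 and the muscle glycolytic enzyme Pgam2 were 0.060 from Myl7. Closest to Myl9 were Ugt2b34 (0.069), a glucuronosyltransferase gene, Cd81 (0.081) and Crip2 (0.085). The nearest named genes were Agbl3 (0.12) and Lemd2 (0.14) for Myh6, and Fastkd3 (0.11), Eef1b2 (0.12) and Mrpl42 (0.13) for Myh7. H3c4 (0.069), a histone gene, was nearest to Myl4. None of these neighbours was called.

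The other myosin II heavy chains sat close to 0. Of 10 on the array 6 were tested, 3 with a positive difference, and none was called; their median was -0.075 against 0.16 over all tested genes. The largest were Myh4 at -0.21 ± 0.26 and Myh1 at -0.19 ± 0.50 (SE), fast skeletal chains, and Myh10 at -0.17 ± 0.53, a non-muscle chain. Myh2, Myh3 and Myh14 were well above background on 1 or 2 arrays and Myh13 on none.

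The perinatal heavy chain Myh8 shows how far a reading can rest on the probe. A single Myh8 probe was well above background on all 8 arrays, at a level from 6.57 to 6.96, with a difference of 0.025 ± 0.21 (SE). Of its 3 other probes, 1 passed on a single array and 2 on none. Likewise 1 Myh4 probe passed on 8 arrays and the other on none. The bright Myh8 probe shares a run of 19 bases, in capitals, with a Myh1 probe that passed on no array.
Myh8 bright probe, chr11:67121925-67121984: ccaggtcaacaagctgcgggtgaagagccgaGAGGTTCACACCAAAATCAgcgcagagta
Myh1 dim probe, chr11:67037938-67037997: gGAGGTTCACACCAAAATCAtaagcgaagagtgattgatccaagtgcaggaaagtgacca

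Of 6 other light chains 4 were tested and none was called, with a median of 0.375. Myl12a, a non-muscle regulatory chain, was 1.42, 1.18, 1.23 and 0.91 in GFP-high and 0.47, 0.84, 0.14 and 0.22 in GFP-low. All GFP-high arrays were above all GFP-low arrays, yet the difference of 0.77 ± 0.25 (SE) had an adjusted p of 0.256 in limma. Higher without overlap were 5.87% of all tested genes. Myl6, the non-muscle essential chain, was at 0.42 ± 0.27 and Mylpf, the fast skeletal regulatory chain, at -0.40 ± 0.57.

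Light chains are switched by phosphorylation. Of the kinases and the phosphatase that act on the regulatory chains 8 were tested and none was called, with a median of -0.18. The largest differences were in Rock1, a kinase that restrains the phosphatase (-2.41 ± 0.90, SE), Ppp1r12a, the phosphatase targeting subunit (-1.30 ± 0.42), and Ppp1cb, its catalytic subunit (-1.09 ± 0.50). Rock1 was well above background on 6 of the 8 arrays, and with normexp its difference shrank to -1.195.

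Among genes for myosin binding, folding and turnover 12 were tested, with a median of 0.053 and no call. Hsp90aa1, a chaperone that works in myosin folding, was lower by -1.525 ± 0.42 (SE; limma, adjusted p = 0.200), without overlap between the groups. Mybpc1 was at -1.05 ± 0.94 and Mybph at 0.88 ± 0.63. The cardiac myosin binding protein Mybpc3, looked at after its values were seen, was at 0.46 ± 0.21 with no overlap (limma, adjusted p = 0.363). No overlap was found for 9% of all tested genes.

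The transcription factors that act on the isoform genes had a median of -0.51 over 19 tested, 7 of them positive, with no call. Mef2a, a muscle enhancer factor, was at -2.56 ± 1.20 (SE) and Sox6, a repressor of slow fibre genes in skeletal muscle, at 2.39 ± 1.66, each well above background on 4 arrays only. With normexp these differences shrank to -0.71 and 1.03. Nr2f1, a nuclear receptor of atrial cells, was lower by -2.002 ± 0.47, with no overlap between the groups (limma, adjusted p = 0.163). Nr2f2 (-1.63 ± 0.39, SE), Tbx5 (-1.07 ± 0.36) and Tead1 (-1.06 ± 0.30) were also lower without overlap. Gata4 was higher without overlap, by 0.97 ± 0.27. Over all tested genes 9% had no overlap, and these other regulators are named after their values were seen.

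Other chamber genes lay on both sides of 0. They were listed as atrial or ventricular by name, and whether each is restricted to that chamber at E10.5 was not tested. Of 11 atrial genes 4 were positive (median -0.36): Sln, the atrial regulator of the calcium pump, was at 2.10 ± 0.37 (SE; limma, adjusted p = 0.0997), while Nr2f1 and its relative Nr2f2 (-1.63 ± 0.39; adjusted p = 0.171) were on the other side. Of 12 ventricular genes 6 were positive (median 0.023). The largest differences in that list were negative: Cited1 (-1.61 ± 0.25, limma, adjusted p = 0.0656), Hand1 (-1.33 ± 0.28) and Hey2 (-0.74 ± 0.63). Without overlap between groups were Sln, Nr2f1, Nr2f2, Nppa (-0.89 ± 0.22), Tbx5 (-1.07 ± 0.36) and Dkk3 (0.56 ± 0.21) of the atrial genes and Cited1, Hand1 and Lbh (0.68 ± 0.26) of the ventricular genes, where 9% of all tested genes had none; Nppa, Tbx5, Dkk3 and Lbh are named for this, after their values were seen. None of the atrial or ventricular genes was called here; Cited1 was called under 5 other settings, with adjusted p from 0.0142 to 0.0491. The median of the atrial list was 0.16 on slide 1 and -0.61 on slide 2.

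**Figure D5:**
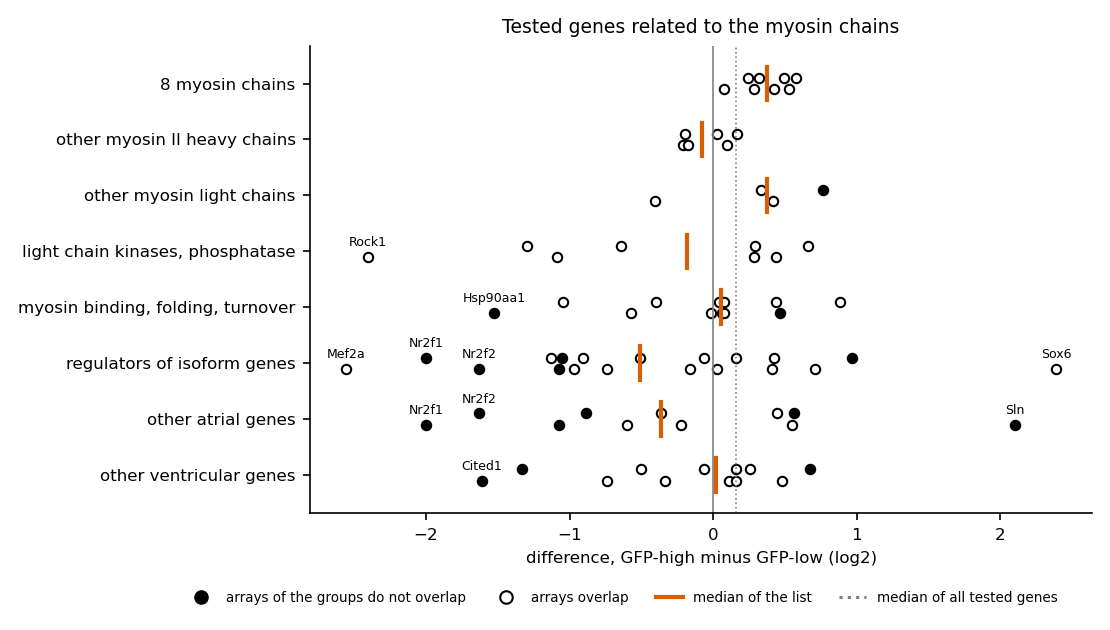
Difference, GFP-high minus GFP-low on the log2 scale, of the 8 myosin chains and of each tested gene in 7 related lists, filled where the arrays of the groups do not overlap, with orange bars for list medians and a dotted line at the median of all tested genes (0.16). The chains lie between 0.075 and 0.58 with open circles only, while single genes such as Sln (2.10), Nr2f1 (-2.002) and Cited1 (-1.61) lie far outside that band.

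Markers of the cells that could carry these chains were read in the same way. All 9 cardiomyocyte markers were measured on every array and positive, where 61.9% of all tested genes were. Their median was 0.35, near the 0.37 of the myosin chains on this scale. It was 0.22 with normexp and 0.21 with quantile normalization. Ttn turned to -0.11 under both of these settings, and Tnnt2 to -0.027 with quantile normalization. Tnni3 was at 0.77 ± 0.28 (SE), Nkx2-5 at 0.71 ± 0.34 and Actc1 at 0.56 ± 0.29, and none of the 9 markers was called. The sum of their linear levels was 1546 to 2179 in GFP-high and 1021 to 1721 in GFP-low. Of 14 skeletal muscle markers, Myod1, Myf5, Myf6, Pax3, Pax7 and Actn3 were well above background on no array, while Tnnt3, Tnni2, Mylpf and Myh8 were so on all 8 and Tnnc2 on 7, beside Myl1 signal on all 8. The skeletal markers tested, 5 in number, had a median of 0.025 (-0.17 with normexp, -0.22 with quantile normalization), and 3 were positive. Tnni2 was at 0.43 ± 0.27 (SE) and Tnnt3 at -0.995 ± 0.47. Of 9 smooth muscle markers 8 were tested, 5 of them positive (median 0.11), where Myl9 was at 0.58. Their median was -0.045 with normexp and -0.016 with quantile normalization, where Myl9 was at 0.37 and 0.27. The summed level of the smooth muscle list was 337.3 to 531.6 in GFP-high and 237.0 to 501.6 in GFP-low.

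Among other cell types, 7 erythroid, 5 endothelial, 5 epicardial, 4 cushion and fibroblast, 2 leukocyte and 1 neural marker were tested and none was called. All 5 epicardial markers tested were positive, with a median of 0.44 (0.24 with normexp, 0.39 with quantile normalization and on slide 1, 0.50 on slide 2). Their list's summed level was 7.98 to 9.23 in GFP-high and 5.32 to 8.30 in GFP-low, and Upk3b and Msln were well above background on no array. The endothelial median was -0.032 with 2 of 5 positive, the cushion and fibroblast median -0.55 with 2 of 4 positive, and the erythroid median -0.027 with 3 of 7 positive. The neural marker, Tubb3, was at -0.89 ± 0.93 (SE). The summed level of the 2 tested leukocyte genes did not overlap between groups, at 10.6 to 15.2 in GFP-high and 3.44 to 5.43 in GFP-low. Most of it was Lyz2, with a mean level of 3.56 in GFP-high and 2.10 in GFP-low, where Cd68 had -0.63 and -1.57. Lyz2 alone did not overlap either, where 5.87% of all tested genes were higher without overlap. The leukocyte list also held Cx3cr1 and Tyrobp, each well above background on 1 array and not tested. Its tested genes were Lyz2 (1.46 ± 0.24, SE; limma, adjusted p = 0.0880, and 0.0327 and 0.0395 under 2 other settings) and Cd68 (0.94 ± 0.68), while Ptprc, Csf1r and Itgam were well above background on no array. The summed levels of the erythroid list, 25.99 to 195.5 and 13.1 to 183.0, overlapped widely. The part of these cells in the myosin differences was not tested.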

How the data were processed

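The members and the gene lists were chosen with earlier results of these data known. Per the file headers and the submitters' processing notes, the authors read 8 one-colour arrays with Agilent Feature Extraction 10.5.1.1, and the deposited intensity of each spot is background-subtracted, with the lowest values replaced by surrogates. The deposited whole-series table holds the same intensities. Here, with R 4.3.3 and limma 3.58.1, the processed signal was divided by its 75th percentile among the non-control spots of an array and expressed as log2; control and outlier-flagged spots were left out and spots of a probe averaged. Symbols of 33096 probes came from a GRCm38.p6 gene table, used for names only. The probe with the highest mean signal stood for a gene, and genes entered the test where this probe's flag for signal well above background was set in 4 or more of the 8 arrays. Groups were compared with lmFit and eBayes in a model without covariates, with Benjamini-Hochberg adjustment over all tested genes; a call is an adjusted p under 0.05. Isoform ratios were compared by exact permutation. P-values set the group difference against the spread between samples, which may be partly technical, since amplification from little RNA adds to it. The steps were tested on simulated data.

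All members and probes are named. For each member, the 3 genes with the closest centred profile are named, apart from unannotated transcripts, and for each list, with no called gene, the 3 largest differences; marker lists of other cell types are given by counts. Each list's summed level adds the levels of its tested genes on the linear scale. Alternatives changed background correction (normexp, offset 50), scaling, filter, probe choice, gene names, slide and replicate blocks, moderation and the samples included.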

Additional observations from a re-analysis of the deposited data

Results flagged for a closer look

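Of 32 groups of 4 arrays, 13 probes and 3 ratios in each sorted population, 3 held an array far from the other 3 by Dixon's ratio; chance gives about 1 in 20. GFP-high replicate 3 was low for Myl7, at 8.396 where the next array was at 8.88, and for the dimmer Myl1 probe, at -2.02 where the next was at -0.36. GFP-low replicate 3 was low for the brighter Myl1 probe, at 5.10 where the next was at 5.82. Both are arrays with a high 75th percentile, and the part of that in these readings was not tested. GFP-high replicate 3 also had the lowest share of spots well above background, 36.3%.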

How the results depend on the processing

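No myosin chain was called by limma under any of 24 alternatives, with 0 to 2 of the 8 at an unadjusted p under 0.05 and the lowest adjusted p per alternative from 0.151 to 0.999. Of the 13 probes 0 were called with normexp. The differences of Myl1, Myl2, Myl3, Myl4 and Myl9 stayed positive under all 24, and those of Myl9 ran from 0.27 to 0.70. Not all of the 24 could change a sign. The blocks, moderation, filters, gene names, deposited table and a common floor for dim values left every member's difference at its main value. Myh6 turned to -0.14 with normexp, -0.145 with quantile normalization, -0.029 with the percentile taken over probes above background on all arrays, -0.12 with no scaling (added after the data were seen), -0.38 within slide 2, -0.18 without GFP-high replicate 1 and -0.050 without GFP-low replicate 3. Myh7 turned to -0.039 with normexp, -0.080 with quantile normalization and -0.006 without GFP-low replicate 3, and Myl7 to -0.004 with quantile normalization. The causes were not tested.

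Leaving out each array in turn moved Myh6 between -0.18 and 0.24, Myh7 between -0.006 and 0.36, Myh6 over Myh7 between -0.36 and -0.043, Myl7 over Myl2 between -0.245 and -0.029, and Myl4 over Myl3 between -0.28 and 0.002, the last without GFP-low replicate 2. The mean over a gene's probes moved Myl4 over Myl3 from -0.10 to -0.31 (exact permutation, p = 0.0571), and quantile normalization moved Myh6 over Myh7 from -0.17 to -0.065 (p = 0.771) and Myl4 over Myl3 to -0.067 (p = 0.771); Myh6 over Myh7 was -0.10 with normexp (p = 0.686). Within slide 1, Myh6 over Myh7 was 0.18 and Myl7 over Myl2 0.047, and within slide 2, Myl4 over Myl3 was 0.095.

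Over all genes, the 21 calls (10 higher, 11 lower) became 52 with a common floor (39 and 13), 12 with probes above background on all 8 arrays (11 and 1), 3 with no filter and 0 with median scaling; normexp gave 21 with another split (15 and 6). Within slides 1 and 2 there were 0. Leaving out 1 array gave 0 to 37 calls: 37 without GFP-high replicate 3, 10 without GFP-high replicate 2, 1 without GFP-low replicate 4 and 0 without each of the other 5, with 1260 to 2588 genes at an unadjusted p under 0.05. Of the related and marker genes, 1 was called with normexp, with the percentile over probes above background and with probes above background on all 8 arrays (Cited1 each time), and 2 with a common floor and with trend and robust moderation (Cited1 and Lyz2).

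The same replicate numbers in both groups were checked for pairing: same-numbered arrays correlated at 0.063 to 0.30 in their deviations from the group means, other pairs at -0.20 to 0.079, and 7 of 8 arrays correlated best with their own number. Since 1 pair was under 0.1 and the labels do not say that same numbers share a sort, the main fit did not take the numbers as pairs. The same-numbered correlations were mostly the higher ones, so a pairing may exist, and the main p-values do not take it into account. A replicate block in limma gave 0 called genes, 0 called members and 2391 genes at an unadjusted p under 0.05, where the main fit had 1847. The dimmest readings, such as the second Myl1 probe, are limited by signal over background.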
